A study of Hordeum vulgare with 12 samples.

Results

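CRL1.1 (MLOC_10784) and SCR-like1 (MLOC_6971) are barley genes for transcription factors tied to the formation of crown roots (CR), and they were followed here through the stem base, the segment from which CR emerge. They were taken by identifier from the count tables, as 2 of the 26073 genes counted, and both had enough reads to be tested. CRL1.1 encodes an LBD (lateral organ boundaries domain) protein and was named by the study as the ortholog of rice CRL1 and maize RTCS. SCR-like1 encodes a GRAS protein related to SCARECROW. RNA was sequenced from stem bases of wild-type (WT) barley cv. Golden Promise and of the AtCKX1-overexpressing line, each at 1 and 10 days after germination (1DAG and 10DAG), in 3 libraries per group and 12 in all. AtCKX1 is an Arabidopsis gene for a cytokinin dehydrogenase, and the line was described by the submitters as low in cytokinins. The labels name neither the promoter of the transgene nor the number of independent transformants, and the paper does not describe these libraries. Each library came from a pool of 5 seedlings by the methods written for WT. Seedlings at 1DAG were on wet filter paper and those at 10DAG had been moved to nutrient solution, and by the same methods a longer segment was cut at 10DAG, whereas the labels give 1 length for all samples. Age, medium and any difference in segment length cannot be told apart in a comparison of ages.

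In rice, CRL1 is an LBD transcription factor that acts downstream of auxin signalling, and plants that lack it fail to initiate crown roots. The maize ortholog RTCS is needed for shoot-borne and seminal roots. SCARECROW, the founding member of its branch of the GRAS family in Arabidopsis, works with SHORT-ROOT in the cell division that forms the root ground tissue and in the upkeep of the root stem cells. Cytokinins generally counteract auxin during root initiation, and cytokinin dehydrogenases inactivate them.

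The primers below were designed by the study for quantitative PCR of the transcripts, and they are shown because they are the sequence of both genes that the sources used here give. They are written 5′ to 3′, with no part in capitals, and have 20 to 22 bases and a GC content of 45.5 to 52.4%.
CRL1.1 forward: ggagacaacaacgatcaggtc
CRL1.1 reverse: acttgcgacgcagaaacttg
SCR-like1 forward: gtgaacatcttggcttgtgaag
SCR-like1 reverse: tcattctcgccctccatttc

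The libraries held 36100002 to 51997655 reads in genes (median 42479783). AtCKX1 reads, which check the genotype labels, were 0 in each of the 6 WT libraries, 11 to 18 per library in the AtCKX1 line at 1DAG and 7 to 42 at 10DAG. Each WT library was compared with the other 2 of its group by median correlation across genes (log2 CPM). WT 1DAG replicate 1 (0.9501) and WT 10DAG replicate 2 (0.974) were the lowest of their groups. The other WT libraries were at 0.9704 and 0.964 (1DAG) and at 0.9779 and 0.9758 (10DAG), so WT 10DAG replicate 2 was only slightly apart. Values without WT 1DAG replicate 1 or WT 10DAG replicate 2, called below the libraries that stand apart, are given where they matter. The summed level of 12 photosynthesis genes, a list the study had called higher at 10DAG in these WT libraries, was 168.5 to 290 CPM (counts relative to library size) in WT at 1DAG, 881.2 to 1055 in WT at 10DAG, 194.2 to 222.9 in AtCKX1 at 1DAG and 1218 to 1308 in AtCKX1 at 10DAG. The sum thus moved with age, and at 10DAG also with genotype. The list as a whole did not share the genotype difference of the sum. At 10DAG 4 of the 12 genes were higher in AtCKX1, with a median log2 difference of -0.095. MLOC_37052 (Photosystem II 10 kDa polypeptide) alone was at 511 to 618 CPM in WT and 828 to 960 CPM in AtCKX1 at 10DAG. The part of these genes in the results on CRL1.1 and SCR-like1 was not tested.

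CRL1.1 was more abundant in the younger stem base of both genotypes. In WT at 1DAG the 3 libraries held 681, 545 and 540 CRL1.1 reads, which are 13.8, 13.3 and 13.7 CPM after scaling by TMM (trimmed mean of M values) over all 12 libraries. In WT at 10DAG they held 332, 310 and 224 reads, or 6.25, 8.46 and 5.65 CPM. The 1DAG libraries were nearly level with each other, the 10DAG libraries were spread more widely with replicate 2 the highest, and every 10DAG library lay below every 1DAG library. The group means were 13.6 ± 0.298 CPM at 1DAG and 6.79 ± 1.48 CPM at 10DAG (SD, n = 3 each).

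The log2 fold change of CRL1.1 from 1DAG to 10DAG in WT was -0.97 (standard error 0.21, 95% interval -1.46 to -0.47), which is 1.96-fold lower, with an adjusted p of 0.01 by edgeR's quasi-likelihood test. CRL1.1 therefore fell by the adjusted p, a limit passed in either direction by 42.7% of the genes tested, but stayed just short of the 2-fold change that the study also required for a call. Of 19773 genes tested, 26% were called in either direction and 11.7% were called lower, and 14.6% had a lower fold change than CRL1.1. In 57.3% of all genes the libraries of both ages did not overlap. CRL1.1 passed the 2-fold limit when the libraries were scaled by upper-quartile factors (-1.01), when no low-count filter was used (-1.03), when all 12 libraries entered the fit (-1.002), and without WT 1DAG replicate 1 (-1.02), WT 10DAG replicate 2 (-1.16) or both (-1.16). It stayed short with DESeq2 (-0.988), library totals alone (-0.991), no robust option (-0.97), a replicate block (-0.989) and in 4 of 6 fits that left out 1 WT library. Tested against a 2-fold change itself (edgeR's glmTreat), it was not called (adjusted p = 0.927). In a bulk sample such as this, fewer cells of a type and less RNA per cell cannot be told apart.

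In the AtCKX1 line CRL1.1 fell with age as well. The 1DAG libraries held 459, 638 and 385 CRL1.1 reads, or 10.8, 13.7 and 9.35 CPM. The 10DAG libraries held 180, 275 and 192 reads, or 4.04, 5.49 and 5.05 CPM. Replicate 2 was the highest library of both AtCKX1 groups, and the ages did not overlap. The mean went from 11.3 ± 2.24 to 4.86 ± 0.743 CPM (SD, n = 3 each), a log2 fold change of -1.22 (standard error 0.20, 95% interval -1.66 to -0.78, adjusted p = 0.000404, edgeR), or 2.33-fold lower. This was a call, as it was for 28% of 20212 genes in either direction and 12.2% in the lower direction, and the ages did not overlap in 70.1% of all genes. Tested against a 2-fold change itself (glmTreat), it was not called (adjusted p = 0.238). Nothing in the labels says that the AtCKX1 libraries came from separate cultures, so p-values that involve them measure the spread between these libraries, which may be technical.

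**Figure D1:**
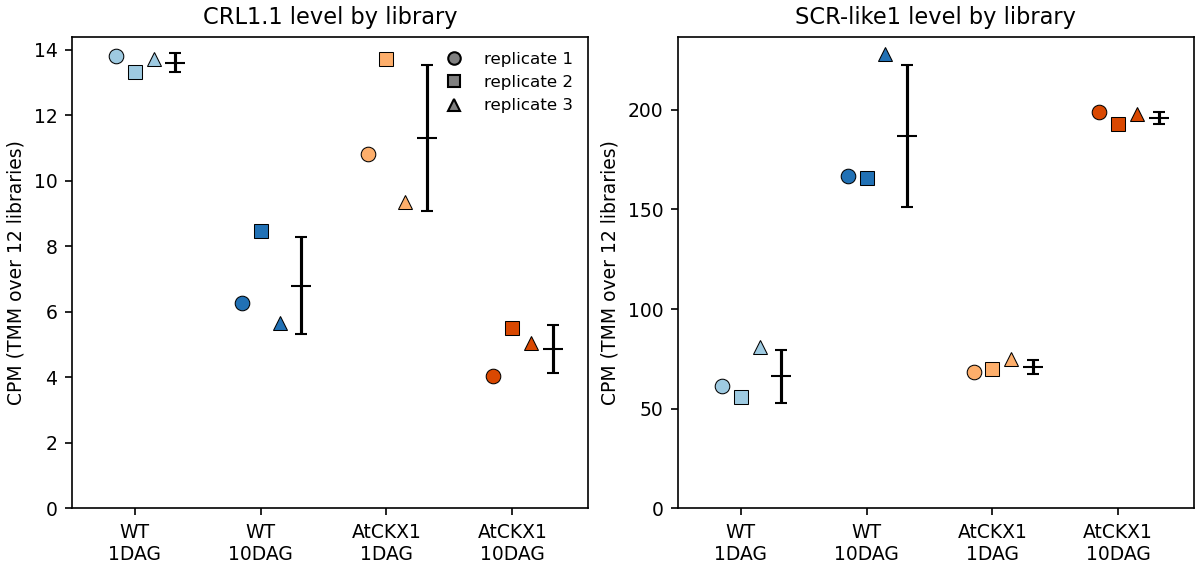
Level of CRL1.1 (left) and SCR-like1 (right) in each of the 12 libraries, in CPM scaled by TMM, with both axes starting at 0. Symbols are the 3 replicates of a group and the bar beside them is the mean with its SD. CRL1.1 was at 4.04 to 8.46 CPM in the 10DAG libraries and at 9.35 to 13.8 CPM in the 1DAG libraries, whereas SCR-like1 was at 166 to 228 CPM at 10DAG and at 56.0 to 81.1 CPM at 1DAG.

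SCR-like1 moved the opposite way and was more abundant in the older stem base. In WT at 1DAG the libraries held 3027, 2304 and 3201 SCR-like1 reads, or 61.5, 56.0 and 81.1 CPM. In WT at 10DAG they held 8863, 6063 and 9034 reads, or 167, 166 and 228 CPM. Replicate 3 was the highest at both ages, and the lowest 10DAG library still lay well above the highest 1DAG library. The ages did not overlap in 57.3% of all genes in WT. The means were 66.2 ± 13.2 CPM at 1DAG and 187 ± 35.6 CPM at 10DAG (SD, n = 3 each).

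SCR-like1 rose in WT by a log2 fold change of 1.53 (standard error 0.20, 95% interval 1.06 to 2.00), or 2.89-fold, with an adjusted p of 0.0017 by edgeR. Of all genes tested, 14.4% were called higher at 10DAG, and 89.3% had a lower fold change than SCR-like1. Against a 2-fold change itself (glmTreat) it was also called, with an adjusted p of 0.0392, in a test that called 1271 of 19773 genes higher. No library decided this call, as the log2 fold change was 1.30 to 1.70 with each WT library left out in turn and all 6 such fits gave a call. The study had already reported this gene as rising with age from the same WT libraries. Its rise in WT is therefore not independent evidence, and leaving out libraries does not remove that limit.

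In the AtCKX1 line the SCR-like1 libraries were tightly grouped. At 1DAG they held 2895, 3243 and 3091 reads, or 68.4, 69.9 and 75.0 CPM. At 10DAG they held 8865, 9665 and 7516 reads, or 199, 193 and 198 CPM. The ages were again apart in every library, as in 70.1% of all genes, and the mean went from 71.1 ± 3.50 to 196 ± 3.18 CPM (SD, n = 3 each). The rise of SCR-like1 was 1.47 in log2 (standard error 0.16, 95% interval 1.13 to 1.81, adjusted p = 2.25e-05, edgeR), or 2.76-fold, in a comparison that called 15.8% of all genes higher. It was called against a 2-fold change itself as well (adjusted p = 0.0132, glmTreat), as were 1545 of 20212 genes in the higher direction.

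An exact permutation test that shuffled the ages within each genotype gave mean log2 differences of -1.11 for CRL1.1 and 1.48 for SCR-like1 over both genotypes, each with a two-sided p of 0.005, the smallest that its 400 rearrangements can give. A p this small was reached by 49.1% of all genes. This test and the corresponding one for genotype were run for both genes, 4 tests in all, with p-values that are not adjusted. For a single genotype, 3 libraries against 3 cannot give an exact p below 0.1.

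Reads of the genes can also be set against each other inside a library, which removes any scaling between libraries, although the ratio says nothing of the relative level of the transcripts because their lengths were not used. In WT the libraries at 1DAG held 4.44, 4.23 and 5.93 SCR-like1 reads per CRL1.1 read, and those at 10DAG held 26.7, 19.6 and 40.3. In AtCKX1 the ratio was 6.31, 5.08 and 8.03 at 1DAG and 49.2, 35.1 and 39.1 at 10DAG. The lowest ratio at 10DAG was thus above the highest at 1DAG. Its means were 4.87 ± 0.925 and 28.9 ± 10.6 in WT and 6.47 ± 1.48 and 41.2 ± 7.27 in AtCKX1 (SD, n = 3 each), and the genotypes overlapped at both ages.

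**Figure D2:**
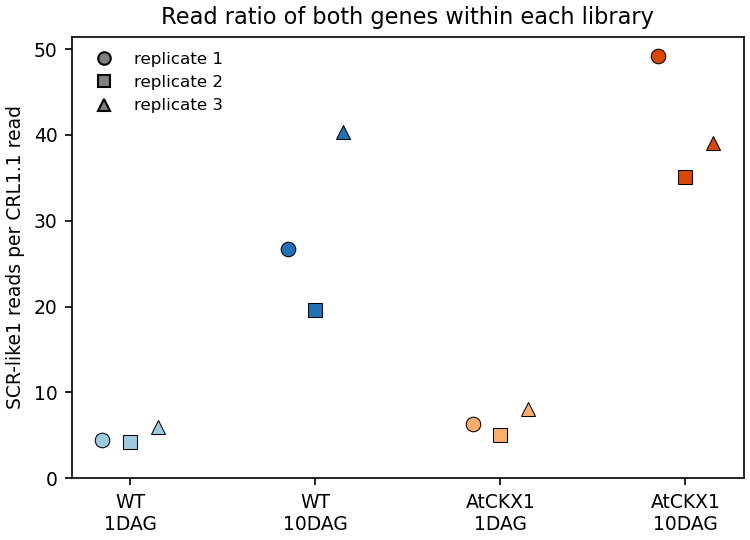
SCR-like1 reads per CRL1.1 read within each library (vertical axis, from 0) for the 4 groups, with a symbol per replicate. The 6 libraries at 1DAG sit between 4.23 and 8.03 and the 6 at 10DAG between 19.6 and 49.2.

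Whether the AtCKX1 transgene went with a different level of the regulators was asked at each age. CRL1.1 at 1DAG was at 13.3 to 13.8 CPM in WT and at 9.35 to 13.7 CPM in AtCKX1, and the groups overlapped. The log2 fold change was -0.26 (AtCKX1 minus WT, standard error 0.20, 95% interval -0.69 to 0.16, adjusted p = 0.445, edgeR), in a comparison that called 0.505% of all genes and in which 17.9% had an unadjusted p under 0.05 and 21.4% did not overlap between genotypes. At 10DAG the CRL1.1 libraries of AtCKX1, at 4.04 to 5.49 CPM, all lay below those of WT, at 5.65 to 8.46 CPM, but with a narrow gap between the closest libraries. The difference was -0.48 (standard error 0.20, 95% interval -0.92 to -0.04), with an unadjusted p of 0.0335 and an adjusted p of 0.308 by edgeR, and was no call. It was -0.28 without WT 10DAG replicate 2 (adjusted p = 0.8) and -0.28 without both libraries that stand apart (adjusted p = 0.564, edgeR). Without WT 10DAG replicate 3 it was -0.60 (adjusted p = 0.21, edgeR). At 10DAG 1.24% of all genes were called, 13.7% had an unadjusted p under 0.05 and the genotypes did not overlap in 23.7%, so a gap of this kind was common in this comparison. In the summed photosynthesis level given above, every AtCKX1 library at 10DAG was above every WT library of that age, while the genotypes overlapped at 1DAG. Gene by gene the 12 did not move together at 10DAG, with 4 higher in AtCKX1 and a median log2 difference of -0.095.

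Over both ages CRL1.1 was lower in AtCKX1 by a mean log2 difference of -0.38 in an exact permutation test that shuffled genotypes within each age (two-sided p = 0.02, unadjusted, n = 6 libraries per genotype). Of all 20212 genes, 14.5% reached a p of 0.02 or less in this test and 24.3% a p of 0.05 or less. The same contrast in edgeR was -0.37 (standard error 0.14, 95% interval -0.68 to -0.07, adjusted p = 0.139) and did not pass, while 2.83% of all genes did. The permutation p was 0.005 to 0.04 with each library left out in turn.

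SCR-like1 showed no detectable difference between genotypes. At 1DAG it was at 56.0 to 81.1 CPM in WT and at 68.4 to 75.0 CPM in AtCKX1, so the WT libraries spanned the AtCKX1 libraries, with a log2 difference of 0.10 (standard error 0.15, 95% interval -0.23 to 0.44, adjusted p = 0.704, edgeR). At 10DAG WT was at 166 to 228 CPM and AtCKX1 at 193 to 199 CPM, again within the WT range, with a difference of 0.07 (standard error 0.15, 95% interval -0.26 to 0.41, adjusted p = 0.885, edgeR). Over both ages the exact permutation test gave 0.10 (two-sided p = 0.335). The intervals reach 0.44 and 0.41, so a like level in both genotypes is not shown. SCR-like1 was picked with its rise in WT known, which favours a positive difference at 1DAG and a negative one at 10DAG.

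Whether age acted on the regulators to a different degree in each genotype was tested directly. For CRL1.1 the age effect in AtCKX1 minus that in WT was -0.22 (log2, standard error 0.28, 95% interval -0.83 to 0.39, adjusted p = 0.883, edgeR). For SCR-like1 it was -0.03 (standard error 0.22, 95% interval -0.50 to 0.44, adjusted p = 0.978, edgeR), and its sign turned under other scalings. Picking SCR-like1 with its rise in WT known favours a negative value here. Of all genes, 0.485% were called in this test and 7.17% had an unadjusted p under 0.05. That CRL1.1 was called in AtCKX1 and stopped short of the fold limit in WT does therefore not show a difference between the genotypes.

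**Figure D3:**
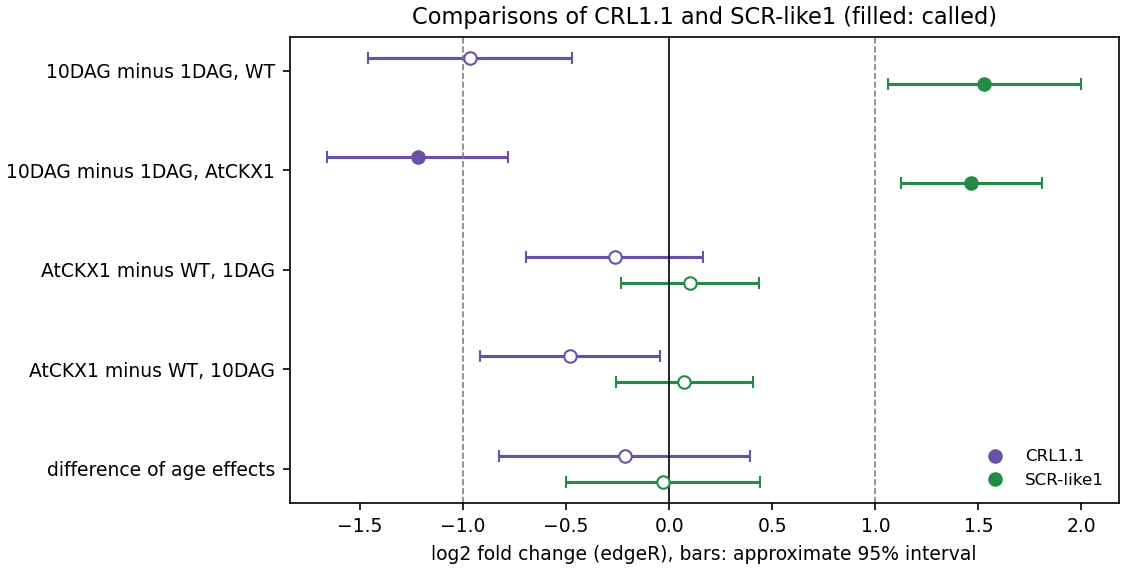
Log2 fold changes of CRL1.1 (purple) and SCR-like1 (green) in the 5 comparisons, with approximate 95% intervals. Filled points passed both limits of a call, the dashed lines mark a 2-fold change and the solid line no change. The age effects lay at -0.97 and -1.22 for CRL1.1 and at 1.53 and 1.47 for SCR-like1, while the 4 genotype effects ran from -0.48 to 0.10.

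Ordered by level, CRL1.1 was highest in WT at 1DAG, then in AtCKX1 at 1DAG, WT at 10DAG and AtCKX1 at 10DAG. The first pair of neighbours overlapped, and the last pair was apart but not called. The middle pair, which differs in both age and genotype and was not tested, did not overlap (9.35 CPM as the lowest and 8.46 CPM as the highest library on either side). For SCR-like1 the order was AtCKX1 at 10DAG, WT at 10DAG, AtCKX1 at 1DAG and WT at 1DAG, with overlap between genotypes at each age and a wide gap between the ages.

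The replicates of the genes varied to different degrees. The coefficient of variation of the CPM of SCR-like1 was 19.9% and 19.1% in WT at 1DAG and 10DAG and 4.92% and 1.62% in AtCKX1, beside medians over all genes of 21.6%, 14.1%, 11.8% and 10.9% in the same 4 groups. WT libraries therefore varied more than AtCKX1 libraries across the transcriptome as well. CRL1.1 did not follow this order, with 2.2% in WT at 1DAG, 21.8% in WT at 10DAG, and 19.8% and 15.3% in AtCKX1. The counting error of a CRL1.1 value was 3.83% in the library with most reads of it (681), so that a coefficient of 2.2% over 3 libraries was smaller than the counting error of a single library. Across all 12 libraries the biological coefficient of variation estimated by edgeR was 0.19 for CRL1.1 and 0.144 for SCR-like1, against a median of 0.191 over all genes.

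The other LBD genes with a readable annotation did not share the direction of CRL1.1. This list came from genes that the study had called higher at 10DAG on these WT libraries, so that their rise in WT is not independent evidence and a falling LBD gene could not be in it. MLOC_51325 (LOB domain protein 40) was at 0.833, 0.122 and 0.507 CPM in WT at 1DAG and at 8.17, 20.6 and 5.60 CPM at 10DAG. MLOC_58304 (LOB domain-containing protein 41) was at 15.8, 10.2 and 8.26 CPM and then at 53.3, 76.8 and 51.9 CPM. WT 10DAG replicate 2 was the highest library for both. In AtCKX1, whose libraries did not serve to choose the list, MLOC_51325 rose from 0.378 ± 0.0297 to 7.32 ± 0.291 CPM (SD, n = 3 each; log2 fold change 4.27, adjusted p = 0.000154, edgeR) and MLOC_58304 from 8.46 ± 3.06 to 35.7 ± 6.37 CPM (2.08, adjusted p = 0.000201). MLOC_56075 (LOB domain-containing protein 13) had 2 to 23 reads per library. It was at 0.200 ± 0.0107 and 0.381 ± 0.181 CPM in AtCKX1 at 1DAG and 10DAG, a difference of 0.91 that did not pass (adjusted p = 0.12), and at 0.0754 ± 0.0264 and 0.455 ± 0.164 CPM in WT (log2 fold change 2.56, adjusted p = 0.00962). Of the 3 LBD genes other than CRL1.1, 3 were thus higher at 10DAG in WT and 2 in AtCKX1, where 14.4% and 15.8% of all genes were called higher, with medians of 2.56 and 2.08 (log2) beside 0.01 and -0.01 over all genes. Between the genotypes 0 of the 4 LBD genes were called by edgeR at either age and 0 by DESeq2, while edgeR called 0.505% and 1.24% of all genes. An unadjusted p under 0.05 was found for 1 at 1DAG and 2 at 10DAG, beside 17.9% and 13.7% of all genes. At 10DAG all 4 had a negative difference, with a median of -0.56 beside -0.01 over all genes. The WT libraries had served to choose the 3 genes other than CRL1.1, which favours a negative difference at 10DAG. The shared sign is therefore not independent evidence.

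The GRAS genes rose together with SCR-like1, with the same limit on how the list was drawn. MLOC_16514 was at 3.21, 2.21 and 2.13 CPM in WT at 1DAG and at 5.65, 6.88 and 3.51 CPM at 10DAG (log2 fold change 1.12, adjusted p = 0.035, edgeR). In AtCKX1 it went from 2.10 ± 0.151 to 5.42 ± 1.15 CPM (SD, n = 3 each; 1.37, adjusted p = 0.00168). MLOC_41071, with 2 to 72 reads per library, was at 0.589, 0.195 and 0.355 CPM in WT at 1DAG and at 1.36, 1.61 and 1.34 CPM at 10DAG (1.93, adjusted p = 0.0159), and went from 0.222 ± 0.156 to 0.881 ± 0.0540 CPM in AtCKX1 (1.99, adjusted p = 0.0116). Both genes were called higher and apart between the ages in each genotype, beside 14.4% (WT) and 15.8% (AtCKX1) of all genes called higher and 57.3% and 70.1% that did not overlap. The median of the 2 GRAS genes other than SCR-like1 was 1.52 in WT and 1.68 in AtCKX1 (log2), beside 0.01 and -0.01 over all genes. Between the genotypes 0 of the 3 GRAS genes were called by edgeR or DESeq2 at either age, and 0 had an unadjusted p under 0.05. At 1DAG and 10DAG edgeR called 0.505% and 1.24% of all genes, and 17.9% and 13.7% had an unadjusted p under 0.05.

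**Figure D4:**
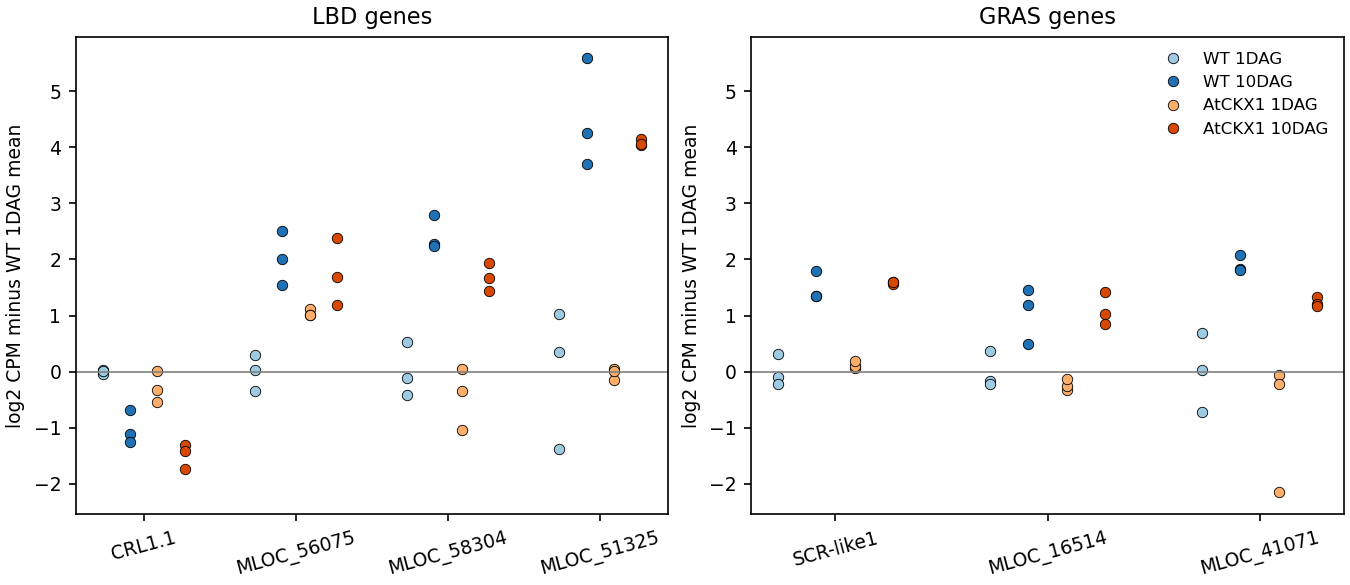
Level of 4 LBD genes (left) and 3 GRAS genes (right) in each library, as log2 CPM (prior count 2) minus the mean of the WT 1DAG libraries of that gene, with colours for the 4 groups. CRL1.1 is the gene whose 10DAG libraries lie below 0, while the 10DAG libraries of the other 6 genes lie above their 1DAG libraries of the same genotype. The other genes were drawn from those the study had called higher.

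Apart from the PCR reference genes, which are not covered here, the remaining 8 genes for which the study designed PCR primers act in auxin, cytokinin, light or small RNA pathways or on chromatin. The PCR was run in part to check changes seen in the same WT libraries, so a rise of these genes in WT is not independent evidence. At 10DAG in WT 5 of the 8 were called higher and 0 lower, and in AtCKX1 3 and 0, beside 14.4% and 15.8% of all genes called higher. All 8 were higher by adjusted p alone in both genotypes, as were 21.7% and 25.8% of all genes. The medians of the 8 genes were 1.04 and 0.82 (log2). RRB9 (MLOC_61880), a B-type response regulator of the cytokinin response, rose by 1.62 in WT and 1.53 in AtCKX1. CRL1.1 was the 1 gene with a negative age effect among the 10 primer genes tested here. Between the genotypes 0 of the 8 were called at either age by edgeR and 0 by DESeq2, with 1 and 0 at an unadjusted p under 0.05 (edgeR). Of all genes, edgeR called 0.505% at 1DAG and 1.24% at 10DAG, and 17.9% and 13.7% had an unadjusted p under 0.05. The gene with the largest difference at both ages was ILR1 (MLOC_70768), for an IAA-amino acid hydrolase that releases auxin from amino acid conjugates. At 1DAG it was at 12.9, 9 and 9.63 CPM in WT and at 8.19, 6.36 and 8.52 CPM in AtCKX1, a log2 difference of -0.45 (adjusted p = 0.234, edgeR). At 10DAG it was at 20.4, 25.4 and 19.0 CPM in WT and 16.7, 16.0 and 17.8 CPM in AtCKX1 (-0.36, adjusted p = 0.399). Every AtCKX1 library was below every WT library of the same age for ILR1. The genotypes did not overlap in 21.4% of all genes at 1DAG and in 23.7% at 10DAG.

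A pair of other root or meristem regulators was annotated, MLOC_65745 (WUSCHEL-related homeobox 6) and MLOC_77763 (AP2-like). Both were higher at 10DAG in WT (1.20 each on the log2 scale), where the study had chosen them, and in AtCKX1 MLOC_77763 was called (1.17) and MLOC_65745 was not (0.15). That choice favours a positive genotype difference at 1DAG, a negative one at 10DAG and a negative interaction. MLOC_65745 had the largest genotype differences of the pair. It was at 2.66, 2.68 and 2.64 CPM in WT and at 5.22, 4.14 and 3.93 CPM in AtCKX1 at 1DAG, and the groups were apart, with a difference of 0.74 (unadjusted p = 0.0045, adjusted p = 0.159 by edgeR and 0.0284 by DESeq2), under the 2-fold limit in both. At 1DAG the genotypes did not overlap in 21.4% of all genes, and 17.9% had an unadjusted p under 0.05 (edgeR). At 10DAG MLOC_65745 was at 5.99 ± 1.47 CPM in WT and 4.92 ± 0.405 CPM in AtCKX1 (SD, n = 3 each), a difference of -0.28 (adjusted p = 0.598). Neither gene was called between genotypes by edgeR or DESeq2, and the interaction of -1.02 (unadjusted p = 0.00492, adjusted p = 0.279, edgeR) was not called either.

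Auxin is the hormone upstream of CRL1 in rice. The auxin genes listed here were drawn from those the study had called higher at 10DAG on the WT libraries, so a falling gene could not be among them and their direction in WT is no evidence. The same choice favours a positive difference between genotypes (AtCKX1 minus WT) at 1DAG and a negative one at 10DAG. Of 11 auxin genes tested in WT 8 were higher at 10DAG and 0 lower, and of 12 in AtCKX1 10 were higher and 0 lower, with medians of 1.75 and 1.31 (log2), beside 14.4% and 15.8% of all genes called higher. Between the genotypes edgeR called 0 of 12 at either age, beside 0.505% and 1.24% of all genes. Of the 12, 4 and 2 had an unadjusted p under 0.05 at 1DAG and 10DAG, beside 17.9% and 13.7% of all genes. Their medians were -0.44 and -0.40, beside 0.03 and -0.01 over all genes. DESeq2 called 1 at 1DAG and 0 at 10DAG, where it called 747 and 536 of 23309 genes in all. The 1 was MLOC_60446, for an auxin efflux carrier of the PIN family, with 1 to 2 reads per library in WT at 1DAG and 9 to 14 in AtCKX1 (log2 difference 2.97, adjusted p = 0.0989 by edgeR and 0.0416 by DESeq2). At 10DAG the largest difference was that of MLOC_46161, annotated as a flavin monooxygenase, at -0.95 (adjusted p = 0.227, edgeR).

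Cytokinin genes are the ones closest to the transgene. Of 8 tested in WT 8 were higher at 10DAG, and of 11 in AtCKX1 9 were higher and 0 lower, with medians of 2.01 and 2.43 (log2), beside 14.4% and 15.8% of all genes called higher. The second median holds a gene without reads at 1DAG at the bound given by a floor of 3 counts over the group. This list too was drawn from genes called higher by the study on the WT libraries. Its differences between genotypes have the same limit as those of the auxin genes. Between the genotypes edgeR called 0 of 11 at either age (0.505% and 1.24% of all genes at 1DAG and 10DAG). At an unadjusted p under 0.05 there were 2 and 0 (17.9% and 13.7% of all genes), and DESeq2 called 1 and 0 (747 and 536 of 23309 genes in all). The medians were -0.04 at 1DAG, over the 10 genes with reads, and -0.30 at 10DAG. The 1 was MLOC_58639, the barley cytokinin dehydrogenase 1 gene. It was at 11, 14.6 and 23.3 CPM in WT and at 2.81, 2.52 and 2.21 CPM in AtCKX1 at 1DAG, so that every AtCKX1 library was far below every WT library. The log2 difference was -2.69 (standard error 0.68, adjusted p = 0.137 by edgeR and 0.00979 by DESeq2). At 1DAG the genotypes did not overlap in 21.4% of all genes. MLOC_58639 overlapped between genotypes at 10DAG, with 81, 40 and 40.4 CPM in WT and 40.8, 3.49 and 17.8 CPM in AtCKX1 (-1.38, adjusted p = 0.367, edgeR). At 10DAG the largest difference was that of MLOC_12999, a B-type response regulator gene with 0 reads in all 6 libraries at 1DAG, which was at 0.132, 2.08 and 0.731 CPM in WT and 0.202, 0.279 and 0.631 CPM in AtCKX1 (-1.39, adjusted p = 0.572, edgeR).

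Genes whose pattern over the 12 libraries was most like that of each regulator were found as those with the smallest root mean square difference of mean-centred log2 CPM. For CRL1.1 they were MLOC_74439 (0.134), MLOC_55893 (0.175) and MLOC_75424 (0.176), beside a median of 0.723 over 20211 genes. The sources used here give no function for them, since readable functions covered only genes the study had called higher, and the 3 nearest of those (MLOC_34488, an ABC transporter ATP-binding protein gene, MLOC_62596, a pseudo response regulator gene, and CRY1b, MLOC_64083) ranked only 12511, 13789 and 14004. MLOC_74439 followed CRL1.1 closely, from 4.89 to 2.31 CPM in WT and from 4.43 to 1.89 CPM in AtCKX1 as group means. For SCR-like1 the nearest were MLOC_55623, annotated as the E3 ubiquitin-protein ligase ubr1 (0.0822), MLOC_15108, for pyruvate decarboxylase, an enzyme of alcoholic fermentation (0.0965), and MLOC_68, for a WD-repeat protein-like protein (0.106), beside a median of 0.89. MLOC_55623 went from 76.6 to 240 CPM in WT and from 88.3 to 252 CPM in AtCKX1, with genotype differences of 0.20 and 0.07 (log2).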

How the data were processed

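Per the authors' methods, reads were trimmed, mapped with TopHat onto the barley cv. Morex genome and assigned to genes by strand with HTSeq 0.6.0, and the WT ages were compared with DESeq2. The deposited values are raw counts per gene. Rows that name no gene stayed out of library sizes: reads in no feature were 22.1 to 24.4%, and reads aligned at several places 7.02 to 10.3%. Reads that either gene shares with near-identical copies would be among the latter, which was not tested. Of the identifiers, 0 matched the RefSeq barley table, so no positions are given.

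Counts were tested with edgeR 4.0.16 in R 4.3.3 (filterByExpr, TMM, robust quasi-likelihood, p-values adjusted by Benjamini-Hochberg across the genes tested). A call means an adjusted p no higher than 0.05 together with a change of 2-fold or more. The WT ages were compared in the 6 WT libraries, all else in 1 fit of 12 libraries with 4 group means. Standard errors and intervals derive from the test statistic and are approximate, and counting errors cover counting alone. The method was tested on simulated data.

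Both genes and all lists were chosen with earlier results of these data known. Named beside them were the genes of the primer table other than the PCR reference genes, and all readable LBD and GRAS genes. Also named were the gene of each other list with the largest genotype difference, and the 3 genes nearest in pattern. Alternatives were DESeq2 1.42.0, other scalings, no filter, no fold limit, glmTreat, a replicate block, other sets of libraries and each library left out. The averaged edgeR contrast, the permutations without a library and the fits without both libraries that stand apart were chosen after seeing the data. The authors' PCR values were not used.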

Additional observations from a re-analysis of the deposited data

How the results depend on the processing

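CRL1.1 in the WT ages was the value nearest to a limit: it passed at -1.01 with upper-quartile factors, -1.03 with no filter on low counts, -0.97 with no fold limit, -1.002 with 12 libraries in the fit and -1.16 without both libraries that stand apart, and ran from -1.16 to -0.91 with each library left out, passing without WT 1DAG replicate 1 or WT 10DAG replicate 2. CRL1.1 in the WT ages did not pass with DESeq2 (-0.988), library totals alone (-0.991), no robust option or glmTreat. In AtCKX1 its -1.22 was no call by glmTreat, and its -0.37 between genotypes over both ages was no call in edgeR (adjusted p = 0.139). The age effects of SCR-like1 were called under every alternative run. Its interaction turned to 0.022 (upper-quartile factors), 0.032 (library totals alone) and 0.00056 (no filter), and to -0.20 to 0.13 with libraries left out, and its difference at 1DAG was -0.00069 to 0.28 in the latter, turning without WT 1DAG replicate 2, all without a call. Counts of called genes were less stable. DESeq2 called 747 genes between genotypes at 1DAG (102 by edgeR), 536 at 10DAG (250) and 290 in the interaction (98). Without the fold limit 8447 (WT) and 10866 (AtCKX1) genes were called between ages (5142 and 5664 with it), and glmTreat called 2101, 2588, 48 (1DAG), 48 (10DAG) and 9 (interaction). With only the 6 libraries of 1DAG in the fit, 42 were called there. With libraries left out the counts were 51 to 250 at 1DAG (250 without WT 1DAG replicate 3, and 51 to 55 without an AtCKX1 1DAG library), 123 to 506 at 10DAG (506 without WT 1DAG replicate 1, and 142, 128, 123 and 159 without WT replicates 1 and 2 or AtCKX1 replicates 1 and 3 of 10DAG) and 34 to 123 in the interaction. With the replicate number as a block, the samples sharing only a number, 63 genes were called at 1DAG and 47 in the interaction, and no call on either regulator changed (CRL1.1 in the WT ages at -0.99). The causes were not tested. The 3 libraries per group left 95% intervals for the genotype difference of CRL1.1 of -0.69 to 0.16 at 1DAG and -0.92 to -0.04 at 10DAG.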
